A study of Homo sapiens with 6 samples.

Results

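The transcript models described here were the NIC models of annotated genes, where NIC is the class that TALON, a long-read annotation tool, gives to a read structure made only of splice sites the annotation holds but joined in a combination that it does not. They were chosen as the rows of the count table whose gene was annotated and whose transcript was classed NIC, a rule that used no count. The rule gave 1382 models of 654 genes, out of 21472 models in the table, of which 18272 belonged to the 8168 annotated genes. The plan was to compare single-exon with multi-exon NIC models, but 0 of the 1382 had a single exon, so every member was multi-exon and the comparison was made between models of few and of many exons instead.

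A spliced transcript is made when the spliceosome joins the donor site at the start of an intron, almost always GT, to the acceptor site at its end, almost always AG. Alternative choices among the same sites skip or keep exons and give several mRNAs from 1 gene, and a class such as NIC collects the combinations that a reference catalogue lacks. The class is assigned from the positions of the splice sites and from the strand given to the read, so it depends on the annotation, on the alignment and on the orientation of the cDNA.

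The RNA came from the human lung carcinoma line Calu-6, an established cell line, transfected for 48 h with a non-silencing siRNA (siControl, 3 libraries) or with an siRNA against the junction of exon 1 and exon 5 in the TERT Delta 2-4 splice variant (siDelta2-4, 3 libraries), both at 10 nM with RNAiMAX. The labels gave the genotype as WT, whereas the column names carried the word Empty and the methods of the study describe cells with a stable empty Flag-V5 vector, so which of these cells were used cannot be told apart here. Barcoded PCR-cDNA libraries of polyA RNA were sequenced together on 1 Nanopore flow cell for 72 h. The study calls the libraries biological replicates. Nothing in the labels said that they came from separate cultures, so p-values measure only the spread between these samples. Total counts ranged from 1037468 to 1309241, and within each group the libraries are named high, mid and low by their total and are given in that order. Counts per 1000000 reads (CPM) of the keratin KRT8 lay between 111 and 139 and those of VIM between 125 and 167, whereas KRT19 was at 0 in 5 of 6 libraries and EPCAM lay between 0.958 and 2.93. TERT had no row, and the effect of the siRNA on its target was not analysed here.

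The sequences shown are splice sites that concern a small part of the members. Among the 1382 models, 38 had the same exon number and the same length to the base as an annotated opposite-strand transcript. The gene of that transcript overlapped their host or lay within 5 kb of it. By the same measure 17 models matched an annotated transcript of their own host. The deposited table gives no positions for the models, so the sites below are those of the annotated transcripts. They are 30-base windows of GRCh38, 15 bases of coding exon and 15 of intron, written 5′ to 3′ on the strand of the annotated gene, with the first or last 2 bases of the intron in capitals.
S100A11-201, intron 2 donor, chr1:152033633-152033662, minus strand: gctgccttcacaaagGTactggtccctgtc
S100A11-201, intron 2 acceptor, chr1:152032809-152032838, minus strand: ttattttctctgcAGaaccagaaggaccct
NDUFB2-208, intron 1 donor, chr7:140697377-140697406, plus strand: agagagcgccgtcggGTgagaggagcagaa
NDUFB2-208, intron 1 acceptor, chr7:140702851-140702880, plus strand: tgttttgtcttgcAGtgccggtggtggtgt
THOC7-201, intron 1 donor, chr3:63863757-63863786, minus strand: gagccgtgactgacgGTgaggccccgctcg
THOC7-201, intron 1 acceptor, chr3:63839759-63839788, minus strand: ccttctttcctgcAGacgaagttatacgga
EIF2S2-201, intron 1 donor, chr20:34112081-34112110, minus strand: atgtctggggacgagGTgaggatctgagcc
EIF2S2-201, intron 1 acceptor, chr20:34105531-34105560, minus strand: ttgtcttttaaacAGatgatttttgatcct
DKK1-201, intron 1 donor, chr10:52314663-52314692, plus strand: attgacaactaccagGTgagaggggtcggg
DKK1-201, intron 1 acceptor, chr10:52314908-52314937, plus strand: gaacccttcccacAGccgtacccgtgcgca

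Each of these annotated genes runs against the host to which the matching NIC model was assigned. Read on the host's strand, the ends of the same introns change to CT and AC, here capitalised for the S100A11 and DKK1 introns.
S100A11-201, intron 2, 5′ end on the plus strand: agggtccttctggttCTgcagagaaaataa
S100A11-201, intron 2, 3′ end on the plus strand: gacagggaccagtACctttgtgaaggcagc
DKK1-201, intron 1, 5′ end on the minus strand: tgcgcacgggtacggCTgtgggaagggttc
DKK1-201, intron 1, 3′ end on the minus strand: cccgacccctctcACctggtagttgtcaat
All 202 introns of the 38 annotated transcripts had GT and AG ends on their own strand, and therefore CT and AC ends on the strand of the host.

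The NIC models had 2 to 17 exons with a median of 5, and were 88 to 4103 bases long with a median of 807.5 and quartiles of 564.2 and 1159. Models with 5 exons were the most frequent, with 282 members and 132793 counts, followed by 269 models with 4 exons and 86733 counts. Only 30 models had 2 exons, and these held 3379 counts. In total the class held 400256 of the 6784575 counts, or 5.90%, and 7.75% of the counts of annotated genes. The counts were concentrated, since the 10 most counted models held 27.7% of them and 57 models had at least 1000 counts, while 802 models had fewer than 100. No NIC model had fewer than 5 counts in any siDelta2-4 library, and 1058 had at least 5 in the siControl libraries too.

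Most NIC models were a small part of their gene. The median share of the gene's counts was 2.30%, with quartiles of 0.557% and 19.3%. The median was 10.7% for models of 2 or 3 exons, 1.35% for 4 or 5 exons, 1.58% for 6 to 8 exons and 9.36% for 9 to 17 exons, so the share was lowest in the middle of the exon range. At the upper end, 245 models held at least 50% of their gene's counts, and in 109 of the 654 genes every count lay on NIC models. Of the genes, 391 had 1 NIC model, 200 had 2 to 4 and 63 had 5 or more. Protein-coding genes were 75.7% of the hosts and 75.3% of all annotated genes in the table, and lncRNA genes were 18.7% of the hosts and 16.1% of all.

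Each model was then compared with annotated transcripts of the same exon number, a measure chosen after the values of the table had been seen. Among the 1382 models, 859 had a host transcript with as many exons and 523 had none, and 350 had more exons than any annotated transcript of their host. Hosts annotated with at most 1 or 2 exons thus carried models of 5, 8 or 13 exons. These 350 models held 125077 counts, or 31.2% of the class. The length lay within 20 bases of a host transcript of the same exon number for 313 models (64719 counts), within 20 bases of a transcript of an opposite-strand gene for 243 models (101760 counts), within 20 bases of both for 9 models (11226 counts) and of neither for 817 models (222551 counts). Models like a host transcript had a median share of 1.20% of the gene's counts, and models like an opposite-strand transcript had a median share of 4.40%. Of all multi-exon models with at least 5 counts in each siDelta2-4 library, 18.2% of NIC models, 12.7% of truncated models (ISM), 13.4% of models with unannotated splice sites (NNC) and 2.36% of annotated transcripts were like an opposite-strand transcript by this measure. In the same set, 25.3% of NIC, 22.2% of ISM and 19.4% of NNC models had more exons than any annotated transcript of their host. An excess of exons was thus not particular to NIC models.

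**Figure D1:**
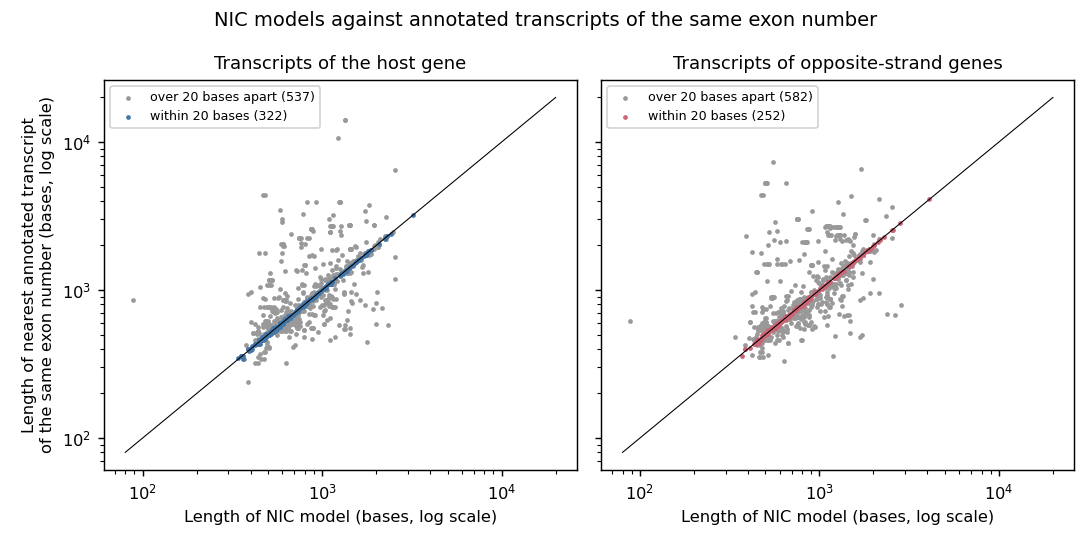
Length of each NIC model in bases (x axis, log scale) against the nearest length of an annotated transcript of the same exon number in bases (y axis, log scale), taken from the host gene at left and from opposite-strand genes that overlap the host or lie within 5 kb at right. Each point is 1 model, the line marks equal length, and coloured points lie within 20 bases of it, 322 at left and 252 at right, with 9 models in both.

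The hosts of NIC models often faced a gene of nearly the same count on the other strand. For each host the most counted opposite-strand gene that overlapped it or lay within 5 kb was taken, and in 361 of 654 hosts (55.2%) that gene had 0.5 to 2 times the counts of the host. Among genes with at least 50 counts, 344 of 622 with NIC models (55.3%) and 414 of 1910 without (21.7%) had such a neighbour. Where a neighbour was counted, the median ratio of its counts to those of the host was 0.996 in the first set and 0.757 in the second. By model, in the multi-exon set compared above, 57.0% of NIC, 54.2% of ISM and 45.9% of NNC models had a host with a neighbour of 0.5 to 2 times its counts. Among annotated transcripts of that set the share was 23.5%. A neighbour of similar count was thus not particular to NIC models. No test was run across genes, which are not replicates. The counting was not stated to use strand, and without it reads of a gene and of its opposite-strand partner cannot be told apart.

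**Figure D2:**
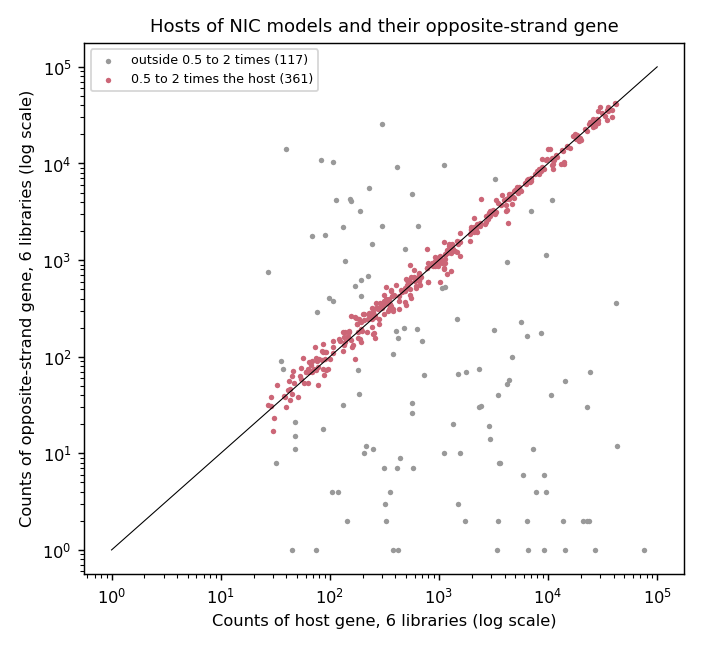
Counts over the 6 libraries of each host of NIC models (x axis, log scale) and of its most counted opposite-strand gene within 5 kb (y axis, log scale). Each point is 1 of the 478 hosts with a counted neighbour, the line marks equal counts, and the 361 coloured hosts have a neighbour with 0.5 to 2 times their own counts.

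The neighbour was not always close. With a closer match, to within 25% of the host's own counts, 202 of 622 hosts (32.5%) overlapped an opposite-strand gene of that count, and the share was 44.7% within 5 kb, 50.2% within 20 kb, 53.7% within 50 kb and 55.5% within 100 kb. On the same strand the share was 0% for overlapping genes and 2.89% within 100 kb. For the 1910 genes without NIC models, the share within 100 kb was 21.4% on the opposite strand and 4.76% on the same strand. These windows were also chosen after the values had been seen.

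**Figure D3:**
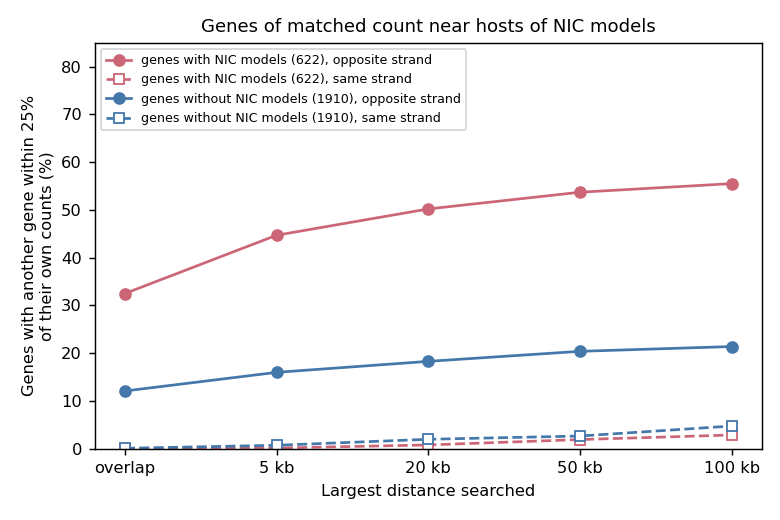
Share of genes, in percent, that had another gene within 25% of their own counts (y axis), by the largest distance searched (x axis), for the 622 genes with NIC models and the 1910 without, all with at least 50 counts. Filled circles are opposite-strand and open squares same-strand genes, and the opposite-strand share of genes with NIC models rises from 32.5% at overlap to 55.5% at 100 kb while both same-strand lines stay under 5%.

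The 6 most counted NIC models each lay opposite a ribosomal protein gene of similar total count. The first was a 5-exon, 608-base model of TRIM66 (ENSG00000166436.18, chromosome 11, 8612037 to 8682694, minus strand), a protein-coding gene of the tripartite motif family. It had 3669, 3706 and 3354 counts in the siControl libraries and 4011, 3509 and 3270 in the siDelta2-4 libraries, which was 74.6% to 77.1% of the gene's counts in each library. The 28474 counts of TRIM66 stood beside the 34740 of RPL27A, 94 bases away on the plus strand, whose transcript RPL27A-212 also has 5 exons and is 43 bases longer than the model. A 5-exon, 651-base model of PTGES3L-AARSD1 (chromosome 17, 42950526 to 42980528, minus strand), a readthrough gene, had 2886, 2914 and 2469 siControl counts and 3253, 2636 and 2500 siDelta2-4 counts. Its gene had 30438 counts, and RPL27, 17.7 kb away on the other strand, had 32132.

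An 8-exon, 1052-base model of EVI5 (chromosome 1, 92508696 to 92792404, minus strand), a regulator of the cell cycle and of Rab GTPases, had 1293, 1470 and 1913 siControl counts and 2226, 2067 and 1835 siDelta2-4 counts. EVI5 had 13227 counts and RPL5, 39.6 kb away, had 14275, and RPL5-202 has 8 exons and 1028 bases. The fourth was a 5-exon model of 1118 bases of TMEM238 (chromosome 19, 55379244 to 55384292, minus strand), an annotated 2-exon gene, with 1924, 1807 and 1622 siControl counts and 1816, 1589 and 1493 siDelta2-4 counts. TMEM238 had 26259 counts and RPL28, 1.64 kb away, had 28194, although the nearest 5-exon transcript of RPL28 was 448 bases shorter than the model. The other two were the 4-exon model of MICOS13, described with the group comparison, and a 5-exon, 848-base model of the lncRNA gene ENSG00000223947 (chromosome 2, 100993676 to 101002244, minus strand), which also has at most 2 annotated exons. The latter had 1681, 1464 and 1414 siControl and 1867, 1581 and 1409 siDelta2-4 counts, in a gene of 17536 counts that overlaps RPL31 with 20022.

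The 4 genes with the most NIC models were RPS3, GAPDH, PIDD1 and RPLP0. RPS3, a protein of the small ribosomal subunit, had 20 NIC models, the most of any gene, and they held 7.97% of its 34142 counts. The most counted of them, with 7 exons and 836 bases, had 66, 67 and 65 siControl and 79, 69 and 57 siDelta2-4 counts. GAPDH, the glycolytic dehydrogenase, had 18 models with 4.11% of its 44093 counts, and its most counted model, with 9 exons and 1271 bases, differed by 5 bases from GAPDH-202. PIDD1, a death domain protein induced by p53, had 16 models with 11.1% of its 42029 counts, and it lay 212 bases from RPLP2, which had 40933. RPLP0, a protein of the ribosomal stalk, had 15 models with 8.67% of its counts, and its most counted model differed by 8 bases from RPLP0-203. In RPS3, GAPDH and RPLP0 no opposite-strand gene within 5 kb came near the host's count, unlike in TRIM66 and PIDD1, although CD27-AS1, 82.9 kb from GAPDH on the other strand, had 42707.

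Among genes with at least 200 counts and at least 1 count outside the class, NDUFB2-AS1, CUL4B, ENSG00000272173 and ZNF839 lay most on NIC models. NDUFB2-AS1 (ENSG00000240889.1, chromosome 7, 140695336 to 140697077, minus strand), an antisense lncRNA gene with at most 2 annotated exons, had 1950 of its 1951 counts on a 4-exon, 499-base model, the exon number and length of NDUFB2-208. The model had 345, 355 and 303 siControl counts beside 402, 382 and 345 of the whole gene NDUFB2, a subunit of respiratory complex I, and 370, 309 and 268 siDelta2-4 counts beside 365, 384 and 345. CUL4B, a scaffold of ubiquitin ligases on chromosome X, had a 6-exon model with 53, 50 and 41 siControl and 65, 78 and 63 siDelta2-4 counts, and the overlapping MCTS1 on the other strand had 395 counts to the 351 of CUL4B. ENSG00000272173, a lncRNA gene with a single annotated exon, and ZNF839, a zinc finger gene, were the other two named by this rule, and their opposite-strand neighbours C12orf57 and CINP likewise had 0.5 to 2 times their counts. Of the 257 genes with at least 50% of their counts on NIC models, 172 had such a neighbour, and of the 174 genes with under 5% on them, 78 had one.

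The gene groups differed in how much of their count lay on NIC models. Of 83 genes matched as cytosolic ribosomal proteins, 65 had NIC models, 273 in all, which held 4.40% of the group's counts. Of these models 123 were like a host transcript and 4 like an opposite-strand transcript. RPS6 had 26.5% of its 18117 counts on 9 NIC models, with a range of 25.7% to 27.5% over the libraries, and RPS20 had 20.5% of its 45485 counts on 8. RPS6 lay 1.43 kb from DENND4C on the other strand, which had 18194 counts, whereas RPS20 had no counted opposite-strand gene within 5 kb. Of the 9 groups, those of splicing genes had the largest shares, with 10.3% of the counts of the SR protein and hnRNP group on 10 models of 5 genes and 11.0% of the counts of the snRNP, LSm and SF3 group on 18 models of 10 genes, although both groups included processed pseudogenes. In the first group 0 models were like a host transcript and 1 like an opposite-strand transcript, and in the second 6 and 6. In the second, 792 of the 4459 NIC counts lay on a model of the pseudogene SNRPFP2. That model had the exon number and length of STMN1-206 on the other strand. SNRPG, a core Sm protein, carried 40.8% of its 4263 counts on 6 NIC models, and HNRNPC, a nuclear RNA-binding protein, carried 36.0% of 906 on 3.

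Nuclear genes of the respiratory chain had 43 models in 29 of 94 genes with 3.21% of the group's counts, and 21 of the 43 were like a host transcript. NDUFS8, a subunit of complex I, stood out with 72.6% of its 1652 counts on 1 NIC model, and SDHD, a subunit of complex II, with 90.0% of its 540. SDHD lay 26 bases from TIMM8B on the other strand, which had 881 counts, whereas NDUFS8 had no counted opposite-strand gene within 5 kb. The remaining groups had few members. Mitochondrial ribosomal proteins had 10 models (2.33% of counts), translation factors 16 (3.72%), proteasome subunits 12 (2.42%), chaperones 7 (6.53%) and ubiquitin conjugation genes 6 (2.05%). Of the 1367 NIC counts of the chaperones, 653 lay on a 12-exon model of DNAJC30, a gene with a single annotated exon. That model differed by 5 bases from BUD23-201 on the other strand.

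The share of the library held by NIC models did not separate the groups. It was 5.87%, 5.84% and 5.99% in the siControl libraries and 5.90%, 5.92% and 5.88% in the siDelta2-4 libraries, giving means of 5.90% ± 0.0783 and 5.90% ± 0.0195 (SD, n = 3 each), with p = 1 in a two-sided exact permutation test. With 3 libraries against 3 this test cannot go below 0.1. Models of 9 to 17 exons held 6.42%, 6.37% and 8.78% of the NIC counts in siControl and 8.41%, 9.60% and 8.29% in siDelta2-4, and the groups overlapped (exact permutation test, p = 0.3). Models of 4 or 5 exons held 57.8%, 57.4% and 53.8% in siControl and 54.1%, 52.6% and 53.7% in siDelta2-4, also with overlap (exact permutation test, p = 0.2). The siControl-low library was closer to the siDelta2-4 libraries than to the other siControl libraries in both measures. All 1382 models were detected in each siDelta2-4 library and 1377 or 1378 in each siControl library, which follows from the minimum of 5 counts that all of them met in siDelta2-4, and no model was at 0 in all siControl libraries.

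Counts of single models were compared with edgeR's quasi-likelihood test over all 6768 models that passed its filter, with a call at a Benjamini-Hochberg adjusted p under 0.1. Of the 1382 NIC models 895 passed the filter and 37 were called, 25 higher and 12 lower in siDelta2-4. That is 4.13% of the NIC models tested, where 6.91% of all models tested were called, 3.95% higher and 2.97% lower. CPM did not overlap between the groups in 159 NIC models (17.8%), against 21.8% of all models tested. The median log2 fold change was -0.01 for the NIC models, 0.01 for all models and 0.05 for annotated transcripts. The count of calls depended on the libraries, being 9, 15 and 107 with the siControl-high, siControl-mid or siControl-low library left out, and 16, 11 and 25 with the siDelta2-4-high, siDelta2-4-mid or siDelta2-4-low library left out. 6 models were called whichever library was left out, and they were those of CALCRL-AS1, ENSG00000224738, PRKG1-AS1, C3orf49, TMEM238 and MICOS13.

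**Figure D4:**
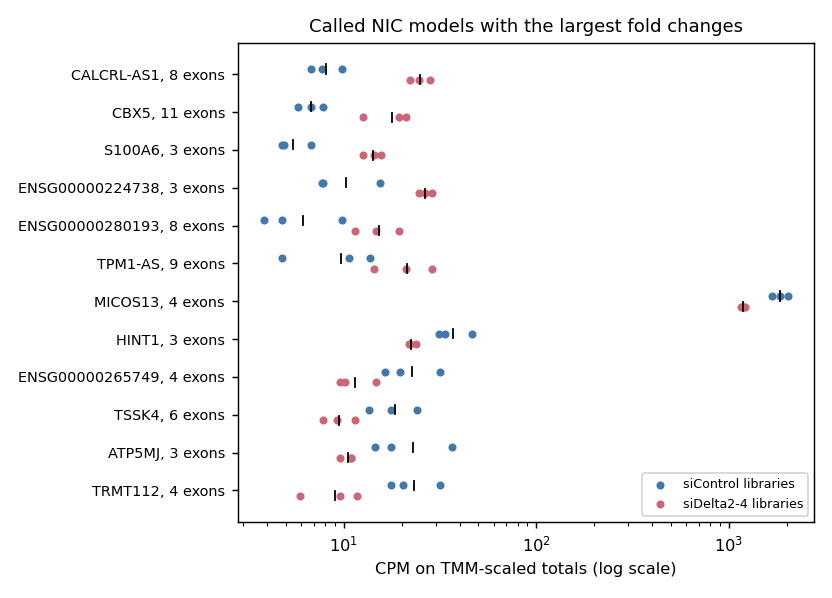
CPM in each library (x axis, log scale, TMM-scaled totals) of the 6 higher and 6 lower called NIC models with the largest fold changes whose groups do not overlap, with siControl libraries in blue, siDelta2-4 libraries in red and a black bar at each group's mean of 3. The MICOS13 model had 1848 CPM in siControl and 1182 in siDelta2-4, far above the other 11.

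The largest rise was in an 8-exon, 2544-base model of CALCRL-AS1 (ENSG00000224063.6, chromosome 2, 187003220 to 187556288, plus strand), an antisense lncRNA gene of the receptor gene CALCRL. It had 7, 8 and 10 siControl and 36, 29 and 23 siDelta2-4 counts, with no overlap. Its log2 fold change was 1.62 ± 0.30 (SE, adjusted p = 0.00186 in edgeR), and TFPI, an inhibitor of coagulation on the other strand, had 142 counts to the host's 193 and differed by 0.66 on the log2 scale (adjusted p = 0.141). A 3-exon, 2392-base model of the lncRNA gene ENSG00000224738 (chromosome 17, 59106598 to 59118453, plus strand) had 8, 16 and 8 siControl and 34, 29 and 30 siDelta2-4 counts. It rose by 1.35 ± 0.30 (adjusted p = 0.00828 in edgeR), and SKA2, a kinetochore protein that it overlaps on the other strand, rose by 0.94 (adjusted p = 0.000185).

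The CBX5 and S100A6 models that follow had few counts. An 11-exon, 1544-base model of CBX5, which encodes heterochromatin protein 1 alpha, had 7, 6 and 8 siControl and 25, 15 and 22 siDelta2-4 counts and rose by 1.37 ± 0.35 (adjusted p = 0.0233 in edgeR). CBX5 has at most 5 annotated exons and lies 60 bases from HNRNPA1 on the other strand, with 3068 counts to the 3133 of HNRNPA1. A 10-exon CBX5 model with many more counts was also called, with a log2 fold change of 0.40. A 3-exon, 438-base model of S100A6, a calcium-binding protein, had 5, 7 and 5 siControl and 20, 15 and 15 siDelta2-4 counts, and rose by 1.36 ± 0.37 (adjusted p = 0.0333), while the gene as a whole did not pass the test (log2 fold change -0.06). The calls of the 11-exon CBX5 model and of the S100A6 model were lost without the siControl-high or the siDelta2-4-high library (adjusted p from 0.108 to 0.16 in edgeR). The 11-exon CBX5 call was also lost without the siControl-mid library (adjusted p = 0.122 in edgeR).

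The last pair of higher models lay opposite genes whose annotated transcripts they resembled in exon number and length. An 8-exon, 2169-base model of ENSG00000280193, annotated with a single exon on chromosome 8, had 5, 4 and 10 siControl and 19, 23 and 12 siDelta2-4 counts and a log2 fold change of 1.31 ± 0.38 (adjusted p = 0.0493 in edgeR). The model was kept for its siDelta2-4 counts. With at least 5 counts required in every library of both groups it was left out, because siControl-mid had 4. It differed by 15 bases from ZFAND1-201, of the gene ZFAND1 on the other strand. A 9-exon, 1677-base model of TPM1-AS, annotated with at most 2 exons, had 5, 11 and 14 siControl and 27, 34 and 15 siDelta2-4 counts and rose by 1.15 ± 0.35 (adjusted p = 0.0556). It differed by 7 bases from TPM1-201 of the actin-binding protein tropomyosin 1, which as a gene rose by 1.25 (adjusted p = 0.00418). Both calls were lost without any 1 of the high and mid libraries of either group, with adjusted p from 0.136 to 0.322.

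Among the lower models the smallest adjusted p was that of a 4-exon, 602-base model of MICOS13 (ENSG00000174917.9, chromosome 19, 5678421 to 5680516, minus strand), a subunit of the complex that shapes mitochondrial cristae. It had 2105, 1907 and 1709 siControl and 1542, 1361 and 1246 siDelta2-4 counts, or 1848 ± 177 and 1182 ± 27.7 CPM (SD, n = 3 each), with no overlap. It fell by 0.65 ± 0.07 on the log2 scale (adjusted p = 2.3e-06 in edgeR), and it held 87.9% to 89.9% of the gene's counts in every library. The model was like 2 annotated transcripts at once, 16 bases from MICOS13-202 and 5 bases from RPL36-201, and RPL36, which overlaps it on the other strand, fell by 0.53 (adjusted p = 0.000185). The 5-exon TMEM238 model described above fell by 0.31 ± 0.07 (adjusted p = 0.0108 in edgeR), and RPL28 beside it fell by 0.25 (adjusted p = 0.0489).

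The other lower models named for the size of their change had 90 to 194 counts over the 6 libraries. A 4-exon model of TRMT112, a cofactor of several methyltransferases, had 33, 21 and 18 siControl and 15, 7 and 10 siDelta2-4 counts and fell by 1.34 ± 0.33 (adjusted p = 0.0179 in edgeR). A 3-exon model of ATP5MJ, a subunit of ATP synthase, had 38, 15 and 18 siControl and 14, 13 and 10 siDelta2-4 counts and fell by 1.11 ± 0.34 (adjusted p = 0.0567). A 3-exon model of HINT1, a nucleotide hydrolase, had 48, 35 and 32 siControl and 28, 28 and 23 siDelta2-4 counts and fell by 0.72 ± 0.23 (adjusted p = 0.0671), as the whole gene did (log2 fold change -0.69, adjusted p = 6e-06). A 6-exon model of TSSK4, a testis kinase gene, had 25, 14 and 18 siControl and 10, 11 and 12 siDelta2-4 counts and fell by 0.96 ± 0.33 (adjusted p = 0.0981). A 4-exon model of the lncRNA gene ENSG00000265749 had 33, 17 and 20 siControl and 19, 12 and 10 siDelta2-4 counts, which overlapped as counts but not as CPM, and fell by 0.95 ± 0.31 (adjusted p = 0.0829). All 5 calls were lost without the siControl-high library, which had the highest count of each model (adjusted p from 0.174 to 0.487 in edgeR), and all 5 without the siDelta2-4-mid library (0.129 to 0.269). The ATP5MJ, TSSK4, ENSG00000265749 and HINT1 calls were also lost without the siDelta2-4-low library, the ATP5MJ, TSSK4 and HINT1 calls without the siDelta2-4-high library, and the HINT1 call without the siControl-mid library (0.12 to 0.277). With library totals as the scaling, the TSSK4 and ENSG00000265749 calls were lost as well (adjusted p = 0.123 and 0.112), and the TSSK4 call was lost without a filter on low counts (0.117) and with a trend on length removed (0.113).

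Of the 38 models with the exon number and length of an opposite-strand transcript, 29 were tested and 3 were called, beside 6.91% of all models tested, and the examples here were chosen after their values had been seen. A 4-exon, 1805-base model of PRKG1-AS1 (chromosome 10, 52230398 to 52314507, minus strand) held all of its gene's counts and had the exon number and length of DKK1-201, the intron 1 splice sites of which are shown above. It had 16, 23 and 30 siControl and 56, 59 and 45 siDelta2-4 counts, beside 26, 25 and 42 and then 58, 67 and 67 for DKK1, a secreted inhibitor of Wnt signalling. The model rose by 1.03 ± 0.23 (adjusted p = 0.00823 in edgeR) and DKK1 by 0.84 (adjusted p = 0.014). A 9-exon, 2556-base model of RALY, an RNA-binding protein, had the exon number and length of EIF2S2-201, from the beta subunit of the initiation factor eIF2. It had 27, 35 and 58 siControl and 78, 101 and 65 siDelta2-4 counts and rose by 0.84 ± 0.22 (adjusted p = 0.0256), and EIF2S2 rose by 0.57 (adjusted p = 0.024). The RALY call was lost without the siControl-high, the siControl-mid or the siDelta2-4-mid library (adjusted p from 0.131 to 0.213 in edgeR).

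An 8-exon, 892-base model of C3orf49 (chromosome 3, 63819299 to 63848636, plus strand), with the exon number and length of THOC7-201 from the THO complex of mRNA export, had 74, 69 and 54 siControl and 139, 121 and 104 siDelta2-4 counts. It rose by 0.70 ± 0.15 (adjusted p = 0.00698 in edgeR), while THOC7 had a log2 fold change of 0.22 that did not pass the test (adjusted p = 0.257). The most counted exact match within 5 kb was the 3-exon, 563-base model of the lncRNA gene ENSG00000229021, with the structure of S100A11-201 from a calcium-binding protein, and it had 1251, 1173 and 1116 siControl and 1571, 1401 and 1182 siDelta2-4 counts, a log2 fold change of 0.05 that did not pass the test (adjusted p = 0.811). The 3-exon, 442-base model of AGBL5, with the exon number and length of OST4-203 from a subunit of the oligosaccharyltransferase, had 722, 632 and 582 siControl and 801, 698 and 598 siDelta2-4 counts beside 665, 581 and 580 and then 717, 653 and 561 for OST4, and a log2 fold change of -0.07 (adjusted p = 0.733). At a greater distance, the 3-exon, 557-base model of ENSG00000279467 had the exon number and length of MIF-201, from the cytokine gene MIF 21.1 kb away, and it fell by 0.32 (adjusted p = 0.0361 in edgeR). CPM of the model overlapped between the groups, and the call held in only 3 of the fits that left out a library. MIF had 671, 718 and 762 siControl and 704, 669 and 802 siDelta2-4 counts. Of the 168 tested models like an opposite-strand transcript alone, 156 resembled a gene that was also tested, and over these the log2 fold changes of the model and of the opposite-strand gene had a Pearson r of 0.56, given as a description because the values share libraries and depth. It was 0.573 over 531 models, of any structure, with a neighbour of 0.5 to 2 times the host's counts. That set included models like an opposite-strand transcript, so these values cannot show whether the correlation was particular to such models.

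By group of genes, and beside the 6.91% called over all models, none of the 186 tested NIC models of cytosolic ribosomal protein genes was called in edgeR, and their median log2 fold change was -0.09. Of 18 tested models of the nuclear respiratory chain, 1 was lower, in ATP5MJ. Of 6 tested models of chaperone genes, 1 was higher, in HSPD1, the mitochondrial chaperonin. The 12-exon HSPD1 model had 10, 12 and 31 siControl and 30, 51 and 34 siDelta2-4 counts and so overlapped between the groups (log2 fold change 0.93, adjusted p = 0.0951 in edgeR). No model of the translation factor, proteasome, splicing, mitochondrial ribosomal protein or ubiquitin conjugation groups was called among 4 to 13 tested in each. With so few models tested in each group but the first, these counts do not set a group apart from that share.

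Length moved with the direction of the calls. The 25 higher models had a median of 1456 bases and the 12 lower models a median of 604 bases, and over the 895 tested NIC models log2 length and log2 fold change had a Pearson r of 0.388 and a Spearman rho of 0.377, as a description across models that share the libraries. Within libraries, the rho of length with a NIC model's deviation from its mean was -0.418, -0.275 and 0.164 in the siControl libraries and 0.201, 0.395 and 0.0272 in the siDelta2-4 libraries. Over all models tested the rho was -0.353, -0.284 and 0.147 in the siControl libraries and 0.147, 0.345 and 0.0891 in the siDelta2-4 libraries. The trend on length was thus not particular to NIC models. In both sets the siControl-low library had the sign of the siDelta2-4 libraries. With a trend on length removed in each library, a fit added after the data had been seen, 30 NIC models were called, 17 higher and 13 lower, of which 23 were among the 37. The part of length in the calls was not tested beyond this fit.

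**Figure D5:**
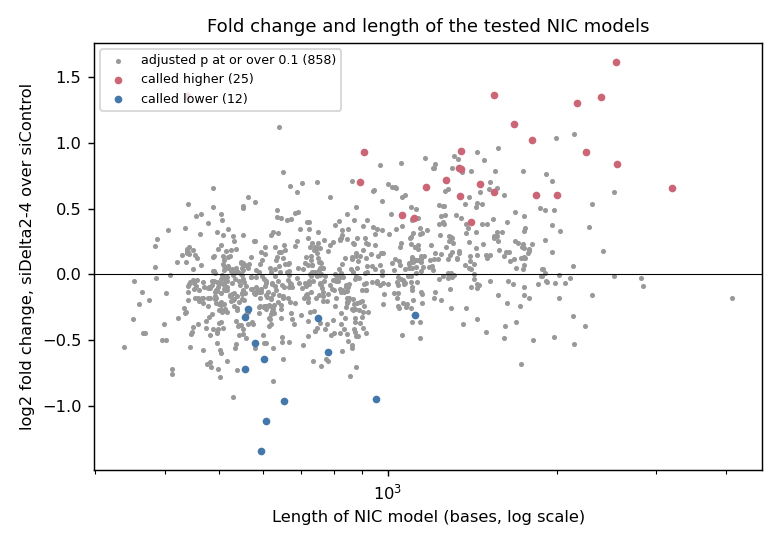
log2 fold change of siDelta2-4 over siControl (y axis) against length in bases (x axis, log scale) for the 895 tested NIC models. Grey points did not pass the adjusted p limit of 0.1, and the 25 higher calls (red) have a median of 1456 bases and the 12 lower calls (blue) a median of 604 bases, with lengths that overlap.

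The use of NIC models within their genes was tested with diffSpliceDGE in edgeR, which compares the change of a model with that of its gene. Of 762 NIC models tested 0 were called, with 22 at an unadjusted p under 0.05, and 0.0716% of all models tested were called. Among the named models S100A6 had the smallest adjusted p in this test (0.178 in edgeR), where the model held 0.294%, 0.445% and 0.343% of the gene in siControl and 1.07%, 0.871% and 0.917% in siDelta2-4. Without the siControl-low library 4 models were called, in ENSG00000257553 and NUDT5 with higher use and in ATP5MJ and TRMT112 with lower use in siDelta2-4. At the level of whole genes 13.0% of the 3888 genes tested were called, and the fold changes of host and neighbouring genes given above come from that fit. The median share of the gene's counts was 2.15%, 2.07% and 2.17% in siControl and 2.30%, 2.21% and 2.27% in siDelta2-4, without overlap (exact permutation test, p = 0.1, the smallest possible), and the models had been kept for their counts in siDelta2-4.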

How the data were processed

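The authors aligned Nanopore PCR-cDNA reads to GRCh38 with minimap2 2.14 and SAMtools 1.13, ran TranscriptClean on the alignments, and assigned reads by TALON to Gencode 44 transcripts or new models at a minimum identity of 0.6 and coverage of 0.8. A model outside Gencode needed 5 reads in each of 3 samples. The authors deposited raw counts per transcript model, with exon number and length in bases. Each count column was given its group from the siRNA that its name carries, and 0 columns were left out.

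The members and gene lists were chosen with earlier results of these data known. The count test was that of edgeR 4.0.16, run in R 4.3.3 (filterByExpr, TMM, quasi-likelihood fit of the groups, two-sided, Benjamini-Hochberg over all models, call under 0.1), use within genes with diffSpliceDGE, and values per library with exact permutation tests. SEs were log2 fold changes over the square root of F. CPM used TMM-scaled totals. Named models were the most counted, the called with the largest changes without overlap, those of the 4 genes with most NIC models and of the 4 genes lying most on NIC models (at least 200 counts and at least 1 on other models), and the leading members of the gene lists; others were chosen after their values were seen. Opposite-strand genes came from Gencode 44 on GRCh38, with overlap or a gap up to 5 kb, or up to 100 kb where stated, and lengths matched within 20 bases. Sequences were read from hg38. The scripts were tested on simulated data. Alternatives were DESeq2 1.42.0 and its size factors, library totals, other filters and limits, a same row rule for both groups (at least 5 counts in every library), a block on the column number, each library left out and, added later, a loess trend on length (span 0.4) and other length tolerances. Samples with the same column number did not deviate together (correlations of 0.0432, -0.108 and -0.0783).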

Additional observations from a re-analysis of the deposited data

How the results depend on the processing

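Counts of 5 in a library limit most single models, and 487 of 1382 were not tested. No value exists for single-exon models, of which there were 0, so the planned shares of single-exon models were not run and the share of multi-exon models equals that of all. The 37 calls became 20 at an adjusted p under 0.05 and 12 with the DESeq2 Wald test (3 higher, 9 lower, 10 of them among the 37), which gave an adjusted p for only 163 of the models. Leaving out each library gave 9 to 107 calls, and 0 to 4 calls in the test of use. Other scaling, filters and row rules gave 32 to 38 calls, and the replicate block on the column number gave 35 and ended the TSSK4 call. The samples share only a number, so the block is no pairing. With library totals alone the calls were 26 higher and 9 lower.

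The difference in the NIC share of the library, 0.00273 percentage points, turned to -0.0384 with the same row rule and to -0.00374 with annotated genes as the denominator, and ranged from -0.0273 to 0.0470 with each library left out, with no call in any. The median share of the gene moved from 2.30% to 1.79% in genes with at least 100 counts and to 2.46% with the same row rule. The 252 models like an opposite-strand transcript became 121 at 5 bases and 402 at 50 bases, and the cause was not tested. Of 355 values of 25 named models, 302 kept direction and side of the limit, 44 lost a call and 6 gained one. With each library left out, the log2 fold change of ENSG00000229021 ranged from -0.01 (without siControl-low) to 0.08, and that of AGBL5 from -0.15 to 0.01 (without siControl-high), and the latter was 0.05 with the length trend removed.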
